A study of Homo sapiens with 9 samples.

Results

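Type I interferon-stimulated genes are the transcripts that cells raise when interferon binds its receptor, and a list of 47 of them was followed by gene symbol through RNA-seq libraries of BxPC3 cells. Each of the 47 symbols matched 1 row of the 60564 in the table of expression values, and 46 passed the filter on low values (3 or more of the 9 libraries at 1 FPKM or above), as did 12747 genes in all. FPKM is a fragment count scaled for transcript length and for the library's total. BxPC3 is an established human cell line from a pancreatic ductal adenocarcinoma. The groups were cells given 0.1 µM WB436B, for which the labels give a code name and no structure, cells given siRNA (small interfering RNA) to STAT3, and vehicle-treated cells, with 3 libraries each. All 9 libraries came from this 1 line. The labels call the libraries biological replicates and say no more of their cultures, so the spread that p-values rest on is that among libraries and may be technical. No group with a non-targeting siRNA is named, and the vehicle group is not said to have been transfected, so effects of transfection and of STAT3 loss cannot be told apart.

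Type I interferons bind a receptor made of IFNAR1 and IFNAR2, which activates the kinases TYK2 and JAK1 and through them STAT proteins. STAT2 and IRF9 are subunits of the factor ISGF3, which binds interferon-stimulated response elements (ISRE) in the promoters of antiviral genes, while STAT dimers bind gamma-activated sites (GAS). STAT3 is also activated by type I interferons, and in other cells it has been described as restraining part of the response. STAT2 and IRF9 are themselves interferon-stimulated.

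The promoters below are shown because they carry the letters of the elements that ISGF3 and STAT dimers are known to bind, upstream of members that rose, fell or differed between the treatments. They are the stretches around each match upstream of the annotated start, 5′ to 3′ on the strand of the gene, from RefSeq on GRCh38.p14, with the matches in capitals. ISG15 lies at chr1:1013344-1013439 (plus strand), IFI6 at chr1:27672246-27672378 (minus strand) and IFIT1 at chr10:89392467-89392569 (plus strand). RTP4 lies at chr3:187368303-187368384 (plus strand), PARP14 at chr3:122680770-122680838 (plus strand), IRF1 at chr5:132490849-132490937 (minus strand) and IRF9 at chr14:24161162-24161250 (plus strand).
ISG15: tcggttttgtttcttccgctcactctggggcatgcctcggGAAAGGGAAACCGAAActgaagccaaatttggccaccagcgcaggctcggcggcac
IFI6: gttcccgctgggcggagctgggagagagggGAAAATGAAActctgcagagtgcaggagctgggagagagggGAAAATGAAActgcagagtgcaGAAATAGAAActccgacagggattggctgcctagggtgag
IFIT1: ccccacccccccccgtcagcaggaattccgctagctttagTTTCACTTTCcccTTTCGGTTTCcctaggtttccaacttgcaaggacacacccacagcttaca
RTP4: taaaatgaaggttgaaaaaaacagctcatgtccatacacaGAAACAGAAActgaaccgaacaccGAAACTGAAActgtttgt
PARP14: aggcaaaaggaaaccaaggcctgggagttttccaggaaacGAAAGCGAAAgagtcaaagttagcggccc
IRF1: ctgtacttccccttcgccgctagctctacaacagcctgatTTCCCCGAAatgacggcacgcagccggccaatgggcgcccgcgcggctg
IRF9: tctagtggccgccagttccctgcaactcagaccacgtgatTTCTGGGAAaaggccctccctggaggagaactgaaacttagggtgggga
The capitals mark the ISRE letters GAAANNGAAA, or their reverse complement, in the first 5 promoters and the GAS letters TTCNNNGAA in IRF1 and IRF9. Both strands were searched, a match may overlap another of the same or the other motif, and the 2 matches in ISG15 overlap.

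Promoter windows from 250 bases before to 50 bases after the start were matched to 39 of the 47 members, DDX58 through its present symbol RIGI. IRF7, USP18, OAS2, OASL, IFIT2, IFITM2, MX2 and TRIM22 had no window. The ISRE letters were present in 27 of the 39 members (69.2%), against 4.38% of the 27305 genes with a window, and the GAS letters in 13 of 39 (33.3%), against 9.38% of all. Overlapping windows of neighbours such as PARP9 and DTX3L share matches. Members that rose and members that fell both held the ISRE letters. After STAT3 siRNA they were present in 10 of 14 members that rose and 5 of 8 that fell. Under WB436B they were present in 7 of 9 members that rose and 13 of 19 that fell. The GAS letters were found in 8 of 19 members lower under WB436B (with 5 of 11 uncalled members) and in none of the 9 that rose. These groups are small, and some of their calls depended on the processing. OAS1, IFITM1 and BST2, among the 8, lost the call with equal totals and with median-of-ratios scaling. ISG20, among the 9, lost it with no filter. After the siRNA the GAS letters were found in 6 of 14 members that rose and 3 of 8 that fell. A match is a description of these letters and not evidence of binding.

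Depth is treated as unknown, since a search for the worth of 1 fragment in weakly expressed genes put only 37.7% to 45.2% of low values within 0.15 of a whole number, where an even spread would give 30%. Pearson correlations of log2(FPKM + 1) over the tested genes were 0.980 to 0.988 within groups and 0.918 to 0.941 between groups. STAT3 itself had 10.46, 10.9 and 10.8 FPKM in the WB436B libraries, 2.98, 2.58 and 3.02 FPKM in the STAT3 siRNA libraries and 16.4, 15.8 and 15.1 FPKM in the vehicle libraries. Its mean was 68.02% of the vehicle mean in WB436B libraries and 18.1% in siRNA libraries, and no 2 groups overlapped. All 6 markers of ductal epithelium were present, and their summed level was 1100 to 1223 FPKM in the WB436B libraries, 1180 to 1259 FPKM in the STAT3 siRNA libraries and 1210 to 1266 FPKM in the vehicle libraries. Single markers moved in opposite directions. Under WB436B KRT19 fell to 46.99% of vehicle (-1.09, adjusted p = 3.2e-07), while KRT7 rose to 174% (0.80, adjusted p = 2.2e-05) and KRT18 to 183% (0.87, adjusted p = 5e-07). The 6 leukocyte markers summed to 0.862 to 0.931 FPKM in the WB436B libraries, 1.62 to 1.79 FPKM in the STAT3 siRNA libraries and 2.21 to 3.36 FPKM in the vehicle libraries. Of these CD14 alone passed the filter, at 0.2997, 0.2299 and 0.498 FPKM in the WB436B libraries, 1.01, 0.964 and 0.992 FPKM in the STAT3 siRNA libraries and 2.16, 1.47 and 1.397 FPKM in the vehicle libraries. PTPRC was at most 0.0193 FPKM, and CLEC4C, a marker of the plasmacytoid dendritic cells that secrete interferon, was listed at 0 throughout. The 5 fibroblast markers, of which COL1A1 alone passed the filter, summed to 0.669 to 0.808 FPKM in the WB436B libraries, 2.23 to 2.52 FPKM in the STAT3 siRNA libraries and 1.69 to 1.93 FPKM in the vehicle libraries. The 3 endothelial markers summed to 0.368 to 0.568 FPKM in the WB436B libraries, 0.235 to 0.382 FPKM in the STAT3 siRNA libraries and 0.739 to 1.05 FPKM in the vehicle libraries. The part of these sums in the results was not tested.

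Several members were abundant in vehicle-treated BxPC3. In the vehicle libraries IFITM3 averaged 211 ± 33.5 FPKM, IFITM1 194 ± 64.4 FPKM and BST2 127 ± 5.99 FPKM (SD, n = 3, as for all ± values). LGALS3BP followed with 83.2 ± 3.68 FPKM, IFI27 with 50.4 ± 2.100 FPKM and ISG15 with 47.2 ± 1.75 FPKM, so IFI27 and ISG15 were within a few FPKM of each other. IRF7, the factor that amplifies interferon production in immune cells, was the only member below the filter, at 0.113, 0.0337 and 0.101 FPKM in the WB436B libraries, 0.0682, 0.198 and 0.218 FPKM in the STAT3 siRNA libraries and 0.181, 0.145 and 0.0728 FPKM in the vehicle libraries. RSAD2, CMPK2 and ISG20 were below 2 FPKM in every library. The median over the 46 tested members was 10.2, 10.3 and 11.4 FPKM in the WB436B libraries, 13.1, 12.8 and 13.0 FPKM in the STAT3 siRNA libraries and 9.60, 10.4 and 10.5 FPKM in the vehicle libraries.

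Setting STAT3 siRNA against vehicle addresses how these genes differ after the siRNA, where transfection and STAT3 loss cannot be told apart. Members moved in both directions. ISG15, IFI6, USP18, IFIT1, EIF2AK2 and IFI44L rose most after the siRNA, while IFITM2, TRIM22, IRF1, RTP4 and IFI35 fell most. Fold changes here are on the scale of log2(FPKM + 1), which understates changes of weakly expressed genes, and a gene was called when its limma p, adjusted over all 12747 genes by the Benjamini-Hochberg method, was below 0.05. Of the 46 tested members 16 rose, against 29.8% of all genes tested, and 10 fell, against 22.3%, so the shares of 34.8% and 21.7% lay near the background. The median log2 fold change of the members was 0.04, with all genes at 0.06. Rises of at least 1 on the log2 scale were found in ISG15, IFI6 and USP18, which are 3 of 46 (6.52%) against 1.04% of all genes, and a decrease of that size in 1, IFITM2 (2.17%), against 2.76%. The IFITM2 call was lost without STAT3 siRNA 1 or 3 or any 1 vehicle library (-1.02 to -0.80, adjusted p = 0.0753 to 0.117), and with no filter (adjusted p = 0.0956). The libraries of the 2 groups did not overlap for 26 members (56.5%), against 60.5% of all genes. Scaling to equal totals gave 16 rises and 6 decreases, against 33% and 19% of all genes. Median-of-ratios scaling gave 15 and 12, against 24.2% and 25.7%.

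The comparison of WB436B with vehicle asks what the compound does to the same genes. On the scale of log2(FPKM + 1) the 4 largest changes were decreases, in TRIM22, IRF1, IRF9 and RTP4, each by more than 1. IFIT2, RSAD2, USP18, IFIT1, ISG15 and IFI6 rose. In all 11 of 46 members rose, against 24.9% of all genes tested, and 21 fell, against 41.1%, so the shares of 23.9% and 45.7% were again near the background. The median of the members was -0.19, with all genes at -0.13. The 4 decreases of at least 1 are 8.70% of the members, against 7.93% of all genes, and none rose by at least 1 on this scale, against 2.54% of all genes. The pseudocount of 1 compresses weakly expressed genes. By mean FPKM, RSAD2 reached 332% of vehicle, IFIT2 209% and USP18 201%. The libraries did not overlap for 36 members (78.3%), against 70.1% of all genes. The split depended on scaling and filter. Median-of-ratios scaling, which moved the median of all genes by 0.13, gave 14 rises and 15 decreases, against 33.1% and 33.2% of all genes. With quantile normalization, which moved it by 0.16, 14 were higher and 20 lower, against 32.4% and 28.7%. A filter of 5 FPKM left 38 members, of which 8 rose and 21 fell, against 34.8% and 34.3%. The share of decreases was thus near the background on the values as deposited, and above it with quantile normalization or that filter.

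Both comparisons share the vehicle libraries, so they are set side by side here and the treatments are compared directly. Against STAT3 siRNA, WB436B left IRF9, IFI44L, ISG15, PARP14, IFI6 and UBE2L6 lower, and IFIT2, RSAD2, IFIT3 and ISG20 higher. Of the 46 members 5 (10.9%) were higher under WB436B, against 20% of all genes, and 27 (58.7%) were lower, against 44.1%. The members' median was -0.29, with all genes at -0.18. Median-of-ratios scaling moved the median of all genes by 0.18 and gave 9 members higher and 16 lower, against 31.5% and 30.7% of all genes. Quantile normalization gave 9 higher and 24 lower, against 28.1% and 28.1%. The 2 decreases of at least 1, in IRF9 and IFI44L, are 4.35% of the members, against 5.11% of all genes, and no member was higher by at least 1, against 2.09%. The libraries did not overlap for 36 members (78.3%), against 70.2%.

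**Figure D1:**
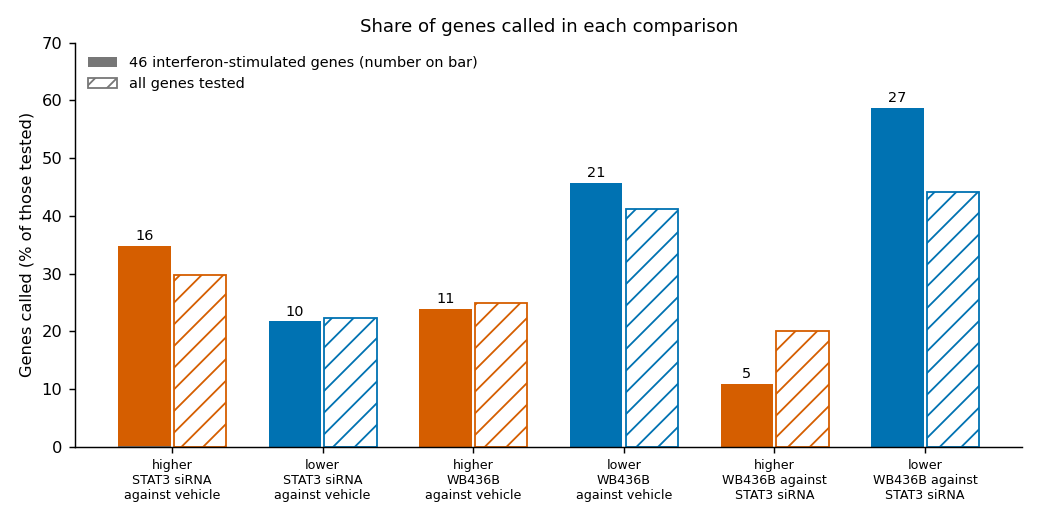
Share of genes called at an adjusted p below 0.05 (y axis, percent of genes tested) in each comparison and direction, for the 46 interferon-stimulated genes (solid bars, number of genes on top) and all 12747 genes tested (hatched). Against vehicle the solid and hatched bars are close, for example 45.7% and 41.1% for genes lower under WB436B. In the direct comparison 58.7% of the members were lower under WB436B, against 44.1% of all genes.

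**Figure D2:**
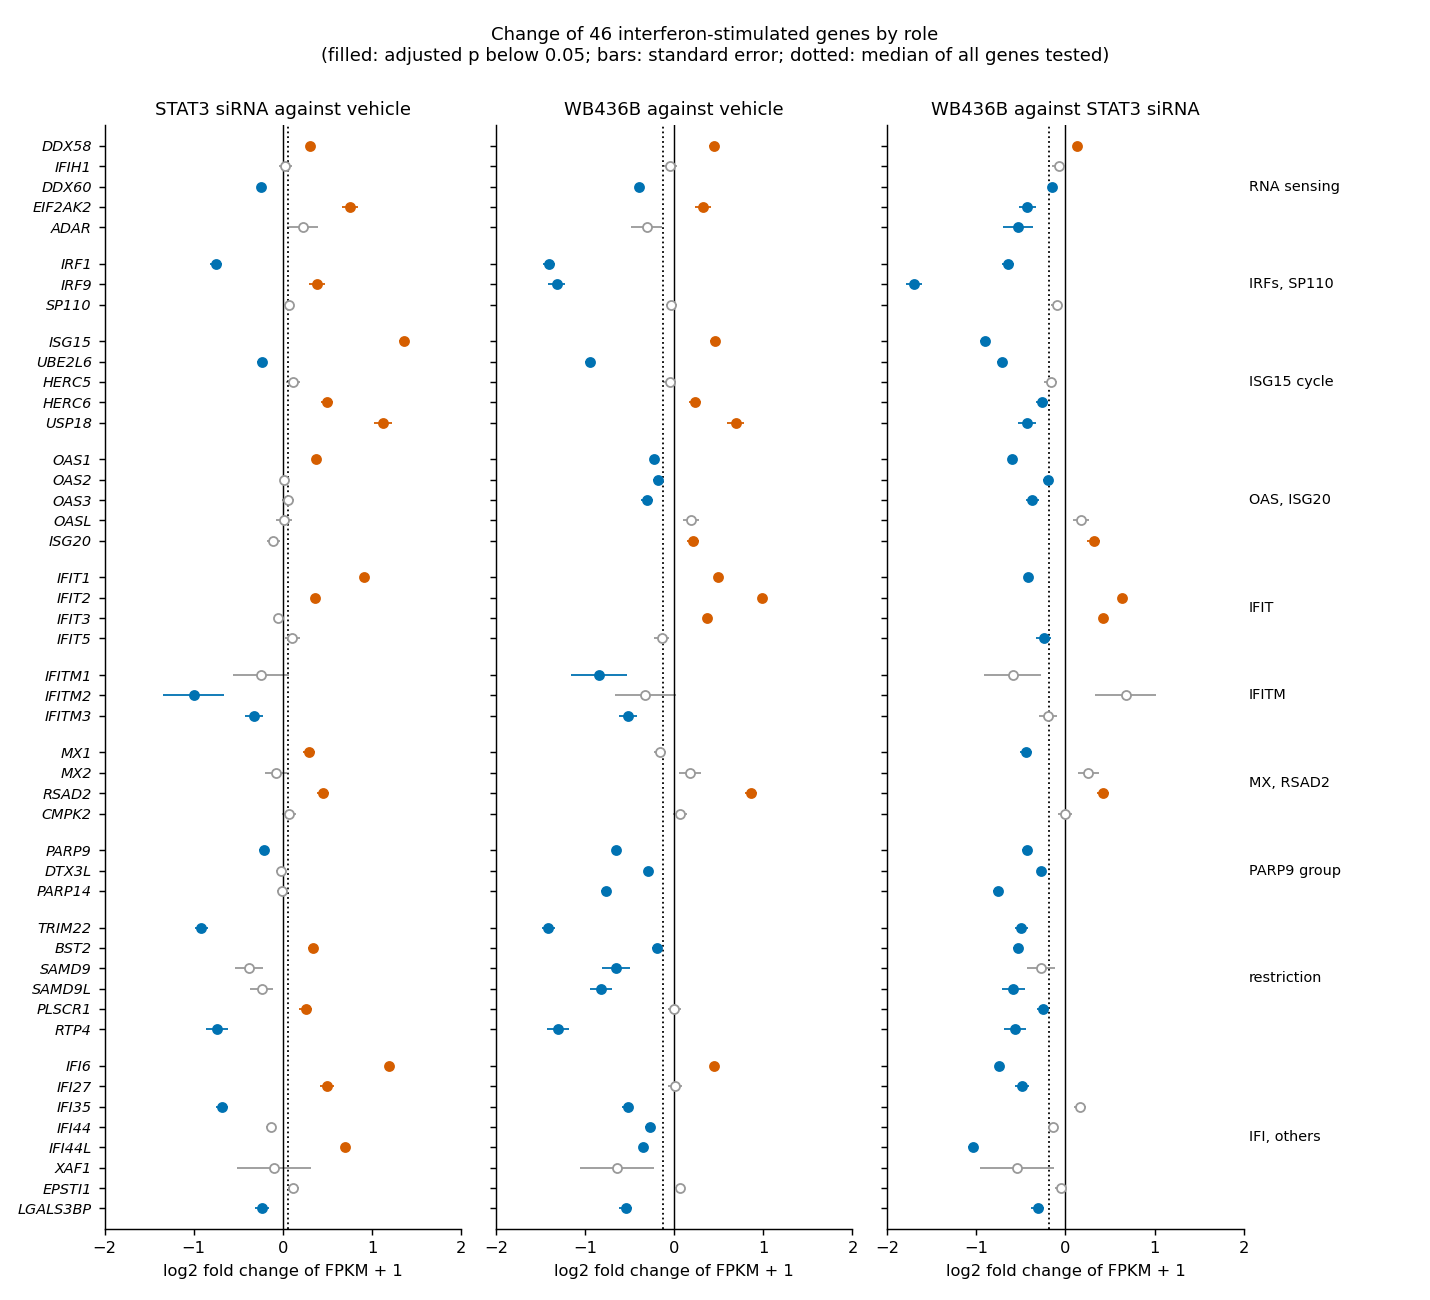
Log2 fold change of FPKM + 1 (x axis) of the 46 tested members, ordered by role, in the 3 comparisons, with bars for the standard error. Filled points passed an adjusted p of 0.05 and the dotted line is the median of all genes tested (0.06, -0.13 and -0.18). ISG15 (1.36), IFI6 (1.19) and USP18 (1.12) are the rightmost points after STAT3 siRNA, and TRIM22 (-1.41), IRF1 (-1.40) and IRF9 (-1.32) the leftmost under WB436B.

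ISG15 is a ubiquitin-like protein that UBE2L6 and HERC5 conjugate to other proteins and that USP18 removes. ISG15 stood at 67.6, 62.03 and 66.1 FPKM in the WB436B libraries, 114, 129 and 126 FPKM in the STAT3 siRNA libraries and 49.2, 45.7 and 46.8 FPKM in the vehicle libraries. The 3 groups did not overlap, with the siRNA libraries highest and the vehicle libraries lowest. Its mean after the siRNA was 260.2% of vehicle (log2 fold change 1.36, adjusted p = 9.1e-07, SE 0.0588), the largest rise of any member on that log2 scale, while by mean FPKM USP18 rose more, to 291%. Under WB436B it was 138% of vehicle (0.46, adjusted p = 0.000159, SE 0.0588), and the direct difference of WB436B from the siRNA was -0.90 (adjusted p = 4.1e-06).

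USP18, which also binds IFNAR2 and dampens receptor signalling, stood at 2.91, 3.82 and 2.97 FPKM in the WB436B libraries, 5.04, 4.82 and 4.22 FPKM in the STAT3 siRNA libraries and 1.74, 1.65 and 1.45 FPKM in the vehicle libraries. It rose by 1.12 (adjusted p = 3.2e-05, SE 0.0971) after the siRNA and by 0.69 (adjusted p = 0.000274, SE 0.0971) under WB436B, and no vehicle library reached the lowest treated one. UBE2L6, the E2 enzyme for ISG15, went the other way from ISG15. It stood at 15.02, 15.3 and 15.2 FPKM in the WB436B libraries, 23.96, 27.03 and 25.6 FPKM in the STAT3 siRNA libraries and 31.95, 28.8 and 29.9 FPKM in the vehicle libraries, a log2 fold change of -0.95 (adjusted p = 1.5e-06, SE 0.0550) under WB436B and -0.24 (adjusted p = 0.00689, SE 0.0550) after the siRNA. All 3 WB436B libraries lay below every other library, and the smaller siRNA decrease was not called with equal totals (-0.18, adjusted p = 0.0632).

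HERC6, a relative of HERC5, stood at 9.94, 10.2 and 10.9 FPKM in the WB436B libraries, 13.1, 12.5 and 12.2 FPKM in the STAT3 siRNA libraries and 7.802, 9.18 and 8.997 FPKM in the vehicle libraries. It rose by 0.50 (adjusted p = 0.000349) after the siRNA and by 0.23 (adjusted p = 0.0127) under WB436B. HERC5, its chromosomal neighbour and the main ligase for ISG15 in human cells, averaged 3.86 ± 0.323 FPKM under WB436B, 4.45 ± 0.171 FPKM after the siRNA and 4.04 ± 0.439 FPKM under vehicle, and passed the test in neither comparison with vehicle (adjusted p = 0.574 and 0.242).

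The IFIT proteins bind viral RNA, and their genes lie in 1 cluster on chromosome 10. IFIT1, which binds RNA with foreign cap structures, stood at 10.4, 10.2 and 10.4 FPKM in the WB436B libraries, 13.9, 14.3 and 14.1 FPKM in the STAT3 siRNA libraries and 6.77, 7.19 and 7.13 FPKM in the vehicle libraries. Its libraries were tight and the groups did not overlap, with log2 fold changes of 0.91 (adjusted p = 9.6e-07, SE 0.0401) after the siRNA and 0.50 (adjusted p = 9.6e-06, SE 0.0401) under WB436B. IFIT2 had the opposite order of treatments, at 19.7, 19.7 and 19.5 FPKM in the WB436B libraries, 12.2, 12.4 and 12.4 FPKM in the STAT3 siRNA libraries and 9.68, 9.33 and 9.17 FPKM in the vehicle libraries. The WB436B libraries held 209% of the vehicle mean (log2 fold change 0.99, adjusted p = 1.9e-07, SE 0.0374) and the siRNA libraries 131% (0.36, adjusted p = 8.9e-05). In the direct comparison IFIT2 was higher under WB436B by 0.63 (adjusted p = 2.6e-06), whereas IFIT1 was lower (-0.42, adjusted p = 3.4e-05).

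IFIT3, the partner that stabilises IFIT1, stood at 42.6, 41.3 and 43.9 FPKM in the WB436B libraries, 33.3, 30.6 and 30.95 FPKM in the STAT3 siRNA libraries and 31.8, 33.2 and 33.5 FPKM in the vehicle libraries. It rose under WB436B by 0.36 (adjusted p = 0.000151), and the siRNA and vehicle libraries overlapped (-0.05, adjusted p = 0.373). IFIT5 averaged 5.24 ± 0.144 FPKM under WB436B, 6.42 ± 0.836 FPKM after the siRNA and 5.88 ± 0.419 FPKM under vehicle, and passed in neither comparison with vehicle. Over the family 3 of 4 genes rose under WB436B, against 24.9% of all genes, and 2 of 4 after the siRNA, against 29.8%, and none fell. IFIT2 shares 10.3% of its exon bases with other gene models.

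**Figure D3:**
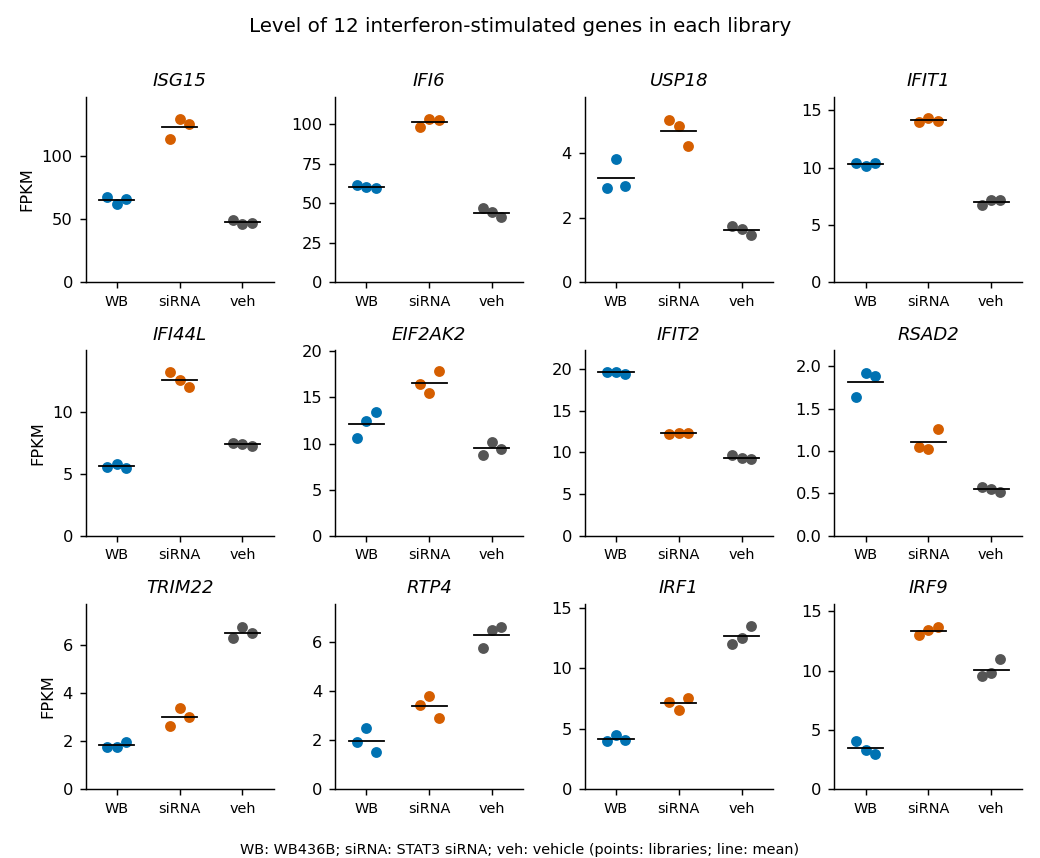
FPKM (y axis, from 0) of 12 members in each library of the WB436B, STAT3 siRNA and vehicle groups, with a line at each mean. ISG15, IFI6, USP18 and IFIT1 are highest after the siRNA and lowest under vehicle, IFIT2 and RSAD2 are highest under WB436B, and TRIM22, RTP4 and IRF1 are highest under vehicle. IRF9 and IFI44L are highest after the siRNA and lowest under WB436B.

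RSAD2 encodes viperin, which makes a chain-terminating nucleotide from CTP, and its neighbour CMPK2 is a nucleotide kinase. RSAD2 was weakly expressed, at 1.64, 1.92 and 1.89 FPKM in the WB436B libraries, 1.05, 1.02 and 1.25 FPKM in the STAT3 siRNA libraries and 0.571, 0.551 and 0.517 FPKM in the vehicle libraries. The order was WB436B, siRNA, vehicle without overlap, with log2 fold changes of 0.86 (adjusted p = 8.5e-06, SE 0.0682) and 0.45 (adjusted p = 0.000756, SE 0.0682), and the treatments differed by 0.42 (adjusted p = 0.000725). CMPK2 averaged 1.06 ± 0.157 FPKM under WB436B, 1.07 ± 0.148 FPKM after the siRNA and 0.971 ± 0.0107 FPKM under vehicle, with overlapping libraries, and was called higher under WB436B by quantile normalization alone (0.43, adjusted p = 0.00134). MX1, a dynamin-like GTPase that traps viral nucleocapsids, averaged 2.07 ± 0.0742 FPKM under WB436B, 3.19 ± 0.217 FPKM after the siRNA and 2.43 ± 0.232 FPKM under vehicle. It rose after the siRNA (0.29, adjusted p = 0.00669) and missed the threshold under WB436B (-0.16, adjusted p = 0.0669). MX2, which acts on retroviruses, passed in neither comparison with vehicle (0.18 under WB436B and -0.08 after the siRNA), and with median-of-ratios scaling it passed under WB436B (0.32, adjusted p = 0.0471).

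The oligoadenylate synthetases OAS1, OAS2 and OAS3 sense double-stranded RNA and activate the nuclease RNase L, and they are neighbours on chromosome 12. OAS1 stood at 6.16, 6.64 and 6.41 FPKM in the WB436B libraries, 10.1, 10.1 and 10.4 FPKM in the STAT3 siRNA libraries and 8.13, 7.54 and 7.29 FPKM in the vehicle libraries. It rose after the siRNA (0.37, adjusted p = 0.000399) and fell under WB436B (-0.22, adjusted p = 0.00436), and its decrease was not called with equal totals (-0.16, adjusted p = 0.0735), median-of-ratios scaling (-0.08, adjusted p = 0.204) or quantile normalization (-0.12, adjusted p = 0.0879). The treatments differed by -0.60 (adjusted p = 1.7e-05).

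OAS2 averaged 19.97 ± 1.01 FPKM under WB436B, 23.00 ± 0.784 FPKM after the siRNA and 22.7 ± 0.997 FPKM under vehicle, and OAS3 averaged 12.96 ± 0.782 FPKM, 17.03 ± 0.629 FPKM and 16.3 ± 1.33 FPKM in the same order. Both fell under WB436B (-0.18 and -0.31) on the values as deposited. The OAS2 call was lost without WB436B 1 (-0.14, adjusted p = 0.0554), vehicle 1 (-0.16, adjusted p = 0.054) or vehicle 2 (-0.16, adjusted p = 0.0525), and with equal totals, and both calls were lost with median-of-ratios scaling. OASL, a catalytically inactive relative that aids the sensor RIG-I, averaged 26.6 ± 0.629 FPKM under WB436B, 23.6 ± 2.88 FPKM after the siRNA and 23.3 ± 1.71 FPKM under vehicle. It missed the threshold under WB436B (0.19, adjusted p = 0.0902) and passed it without STAT3 siRNA 3 (0.19, adjusted p = 0.0255), in a fit of only the groups compared (0.19, adjusted p = 0.033), and most strongly when scaled by median-of-ratios (0.34, adjusted p = 0.00735) or to equal totals (0.26, adjusted p = 0.0438). ISG20, a 3′ exonuclease, stood at 1.64, 1.42 and 1.29 FPKM in the WB436B libraries, 0.985, 1.01 and 0.906 FPKM in the STAT3 siRNA libraries and 1.05, 1.23 and 1.076 FPKM in the vehicle libraries. It rose under WB436B (0.21, adjusted p = 0.0276), a call lost without WB436B 1 (0.15, adjusted p = 0.0964), WB436B 2 (0.22, adjusted p = 0.0567), vehicle 1 (0.19, adjusted p = 0.085) or vehicle 3 (0.20, adjusted p = 0.0703).

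DDX58 (RIG-I) and IFIH1 (MDA5) are cytosolic sensors of viral RNA. DDX58 stood at 12.9, 12.9 and 12.3 FPKM in the WB436B libraries, 11.95, 11.6 and 10.9 FPKM in the STAT3 siRNA libraries and 9.29, 9.14 and 8.84 FPKM in the vehicle libraries. Vehicle libraries were lowest, with log2 fold changes of 0.44 (adjusted p = 4.9e-05, SE 0.0470) under WB436B and 0.31 (adjusted p = 0.000723, SE 0.0470) after the siRNA. IFIH1 averaged 6.88 ± 0.579 FPKM under WB436B, 7.28 ± 0.662 FPKM after the siRNA and 7.102 ± 0.189 FPKM under vehicle and passed in neither comparison with vehicle. DDX60, a helicase related to these sensors, stood at 15.4, 16.7 and 16.2 FPKM in the WB436B libraries, 18.3, 17.8 and 17.9 FPKM in the STAT3 siRNA libraries and 21.4, 21.7 and 21.2 FPKM in the vehicle libraries and fell in both comparisons (-0.40, adjusted p = 4.4e-05, under WB436B and -0.24, adjusted p = 0.00146, after the siRNA).

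EIF2AK2 encodes PKR, the kinase that double-stranded RNA activates to stop translation. It stood at 10.6, 12.4 and 13.4 FPKM in the WB436B libraries, 16.5, 15.5 and 17.8 FPKM in the STAT3 siRNA libraries and 8.77, 10.2 and 9.45 FPKM in the vehicle libraries. It rose by 0.75 (adjusted p = 0.000213) after the siRNA and by 0.32 (adjusted p = 0.013) under WB436B, and the lowest WB436B library was close to the highest vehicle library. ADAR edits adenosines in double-stranded RNA and restrains these sensors. It stood at 19.9, 17.7 and 25.5 FPKM in the WB436B libraries, 35.3, 32.03 and 25.1 FPKM in the STAT3 siRNA libraries and 21.5, 28.7 and 28.5 FPKM in the vehicle libraries, overlapped between the groups, and passed in neither comparison with vehicle on all libraries. Under WB436B it had a log2 fold change of -0.31 (adjusted p = 0.143), which passed without WB436B 3 (-0.45, adjusted p = 0.0479).

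Of all members IRF9 set the treatments apart most. IRF9, the DNA-binding subunit of ISGF3, stood at 4.07, 3.33 and 2.96 FPKM in the WB436B libraries, 13.04, 13.4 and 13.7 FPKM in the STAT3 siRNA libraries and 9.51, 9.77 and 10.9 FPKM in the vehicle libraries. The WB436B libraries held 34.3% of the vehicle mean (log2 fold change -1.32, adjusted p = 3.8e-06, SE 0.0912), while the siRNA libraries held 133% (0.38, adjusted p = 0.00804, SE 0.0912). The direct difference of -1.70 (adjusted p = 1.6e-06, SE 0.0912) was the largest of any member. In the annotation 48.4% of IRF9 exon bases are shared with same-strand gene models, most of all AL136295.5, so fragments could be divided between them. IRF1, an interferon-induced factor that activates many of the same promoters, stood at 3.96, 4.48 and 4.06 FPKM in the WB436B libraries, 7.21, 6.56 and 7.52 FPKM in the STAT3 siRNA libraries and 11.96, 12.5 and 13.4 FPKM in the vehicle libraries. The groups did not overlap, with vehicle highest, and the log2 fold changes were -1.40 (adjusted p = 5.8e-07, SE 0.0675) under WB436B and -0.75 (adjusted p = 3.9e-05, SE 0.0675) after the siRNA. IRF1 shares 22.0% of its exon bases with opposite-strand gene models, most of all C5orf56, and whether the counting used strand is not given in the sources used here. SP110, a nuclear body protein, averaged 3.31 ± 0.216 FPKM, 3.61 ± 0.158 FPKM and 3.42 ± 0.238 FPKM in the WB436B, STAT3 siRNA and vehicle groups and passed in neither comparison with vehicle.

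PARP9 and the ubiquitin ligase DTX3L form a complex, and PARP14 is an ADP-ribosyltransferase encoded nearby on chromosome 3. All 3 genes fell under WB436B, against 41.1% of all genes tested. PARP14 stood at 11.1, 11.2 and 11.8 FPKM in the WB436B libraries, 19.1, 19.8 and 20.5 FPKM in the STAT3 siRNA libraries and 19.7, 21.4 and 18.6 FPKM in the vehicle libraries, a log2 fold change of -0.76 (adjusted p = 6.4e-06, SE 0.0572) under WB436B, with siRNA and vehicle libraries overlapping (-0.01, adjusted p = 0.924). PARP9 stood at 7.15, 7.75 and 7.41 FPKM in the WB436B libraries, 10.9, 10.3 and 9.96 FPKM in the STAT3 siRNA libraries and 11.8, 12.9 and 11.96 FPKM in the vehicle libraries, with log2 fold changes of -0.65 (adjusted p = 1.1e-05, SE 0.0535) under WB436B and -0.22 (adjusted p = 0.00906) after the siRNA, the second not called with equal totals (-0.17, adjusted p = 0.0552). DTX3L averaged 21.9 ± 1.13 FPKM under WB436B, 26.6 ± 0.839 FPKM after the siRNA and 26.99 ± 1.23 FPKM under vehicle, and fell under WB436B (-0.29, adjusted p = 0.00131).

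Other restriction factors fell under WB436B in 5 of 6 cases, against 41.1% of all genes, and after the siRNA 2 rose and 2 fell, against 29.8% and 22.3%. Of the 5, BST2 lost its call with equal totals and with median-of-ratios scaling. TRIM22, a ubiquitin ligase with antiviral activity, stood at 1.77, 1.77 and 1.96 FPKM in the WB436B libraries, 2.63, 3.37 and 3.02 FPKM in the STAT3 siRNA libraries and 6.32, 6.78 and 6.51 FPKM in the vehicle libraries. The WB436B libraries held 28.05% of the vehicle mean (log2 fold change -1.41, adjusted p = 8.3e-07, SE 0.0734) and the siRNA libraries 46.02% (-0.91, adjusted p = 2.1e-05, SE 0.0734). RTP4, a chaperone of membrane receptors, stood at 1.93, 2.47 and 1.53 FPKM in the WB436B libraries, 3.42, 3.79 and 2.92 FPKM in the STAT3 siRNA libraries and 5.77, 6.501 and 6.62 FPKM in the vehicle libraries, in the same order, with log2 fold changes of -1.30 (adjusted p = 2.3e-05, SE 0.122) and -0.74 (adjusted p = 0.00113, SE 0.122).

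BST2, or tetherin, which holds budding virions at the cell surface, averaged 111 ± 1.47 FPKM under WB436B, 161 ± 8.78 FPKM after the siRNA and 127 ± 5.99 FPKM under vehicle. It rose after the siRNA (0.34, adjusted p = 0.000764), and its decrease under WB436B (-0.19, adjusted p = 0.00977) was lost with equal totals (-0.12, adjusted p = 0.0717) and median-of-ratios scaling (-0.03, adjusted p = 0.58). SAMD9 and SAMD9L are adjacent genes for cytosolic poxvirus restriction factors. SAMD9L stood at 3.57, 4.05 and 2.68 FPKM in the WB436B libraries, 5.03, 5.196 and 6.67 FPKM in the STAT3 siRNA libraries and 6.92, 6.57 and 6.81 FPKM in the vehicle libraries and fell under WB436B (-0.82, adjusted p = 0.000502). SAMD9 stood at 26.1, 21.5 and 30.02 FPKM in the WB436B libraries, 32.1, 29.8 and 31.8 FPKM in the STAT3 siRNA libraries and 45.5, 46.9 and 31.7 FPKM in the vehicle libraries and also fell under WB436B (-0.65, adjusted p = 0.00625). After the siRNA SAMD9 missed the threshold (-0.38, adjusted p = 0.0767) and passed it without vehicle 3 (-0.55, adjusted p = 0.00747). PLSCR1, a phospholipid scramblase, averaged 15.9 ± 1.099 FPKM under WB436B, 19.1 ± 1.403 FPKM after the siRNA and 15.8 ± 0.897 FPKM under vehicle. It rose after the siRNA (0.25, adjusted p = 0.0167), a call lost without STAT3 siRNA 3 (0.20, adjusted p = 0.0591) or vehicle 2 (0.21, adjusted p = 0.0597) or under median-of-ratios scaling (0.19, adjusted p = 0.0638).

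The IFITM proteins sit in membranes and block virus entry, and IFITM2, IFITM1 and IFITM3 are neighbours on chromosome 11 with closely related sequences. Their values are uncertain because fragments can be exchanged between them and 32.5% of the exon bases of IFITM1 are shared with other gene models, most of all IFITM2. IFITM1 stood at 109, 106 and 96.02 FPKM in the WB436B libraries, 99.3, 199 and 194 FPKM in the STAT3 siRNA libraries and 222, 121 and 240.1 FPKM in the vehicle libraries, with 1 siRNA library and 1 vehicle library far below the other two of their group. Its decrease under WB436B (-0.84, SE 0.317, adjusted p = 0.0433) was lost without WB436B 1, 2 or 3 or vehicle 1 or 3 (-0.88 to -0.66, adjusted p = 0.0783 to 0.134). It was also lost with equal totals or median-of-ratios scaling, under the replicate block (adjusted p = 0.0655) and with no filter (adjusted p = 0.103).

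IFITM2 stood at 9.03, 10.50 and 19.1 FPKM in the WB436B libraries, 5.25, 13.02 and 5.48 FPKM in the STAT3 siRNA libraries and 15.2, 15.2 and 16.3 FPKM in the vehicle libraries, with 1 siRNA library well above the other two. Its decrease after the siRNA (-1.003, SE 0.341, adjusted p = 0.0367) was lost without STAT3 siRNA 1 or 3 or vehicle 1, 2 or 3 (-1.02 to -0.80, adjusted p = 0.0753 to 0.117), and with no filter (adjusted p = 0.0956). IFITM3 stood at 157, 144 and 138 FPKM in the WB436B libraries, 162, 170.2 and 168 FPKM in the STAT3 siRNA libraries and 248, 182 and 204 FPKM in the vehicle libraries. It fell under WB436B (-0.52, adjusted p = 0.00204), and its decrease after the siRNA (-0.33, adjusted p = 0.0268) was lost without STAT3 siRNA 1, 2 or 3 (-0.34 to -0.31, adjusted p = 0.0538 to 0.0753). The siRNA call was also lost with equal totals (-0.27, adjusted p = 0.0819) and with no filter (-0.33, adjusted p = 0.0716).

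Among the remaining members IFI6, a small membrane protein that counters apoptosis and flavivirus replication, was ordered as ISG15 was. It stood at 61.3, 60.3 and 59.8 FPKM in the WB436B libraries, 98.7, 104 and 103 FPKM in the STAT3 siRNA libraries and 46.7, 44.1 and 41.5 FPKM in the vehicle libraries, with log2 fold changes of 1.19 (adjusted p = 6.8e-07, SE 0.0484) after the siRNA and 0.45 (adjusted p = 5.5e-05, SE 0.0484) under WB436B and no overlap. IFI27, a mitochondrial protein of the same family, stood at 46.4, 55.1 and 50.8 FPKM in the WB436B libraries, 64.9, 75.7 and 73.6 FPKM in the STAT3 siRNA libraries and 52.3, 48.1 and 50.7 FPKM in the vehicle libraries. It rose after the siRNA (0.49, adjusted p = 0.000889), and the WB436B and vehicle libraries overlapped (0.01, adjusted p = 0.938).

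IFI44L and IFI44 are adjacent, related genes on chromosome 1. IFI44L stood at 5.53, 5.82 and 5.46 FPKM in the WB436B libraries, 13.2, 12.6 and 12.01 FPKM in the STAT3 siRNA libraries and 7.496, 7.398 and 7.26 FPKM in the vehicle libraries. It rose after the siRNA (log2 fold change 0.70, adjusted p = 9.6e-06, SE 0.0482) and fell under WB436B (-0.34, adjusted p = 0.000267, SE 0.0482), and the treatments differed by -1.04 (adjusted p = 7.8e-07). IFI44 averaged 36.4 ± 0.297 FPKM under WB436B, 40.3 ± 3.03 FPKM after the siRNA and 44.2 ± 1.73 FPKM under vehicle. Its decrease under WB436B (-0.27, adjusted p = 0.003) was lost with median-of-ratios scaling (-0.11, adjusted p = 0.134). After the siRNA it missed the threshold (-0.13, adjusted p = 0.0845) and passed it without STAT3 siRNA 3 (-0.18, adjusted p = 0.0238).

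IFI35, a leucine-zipper protein that binds NMI, stood at 3.59, 3.25 and 3.05 FPKM in the WB436B libraries, 2.61, 2.98 and 2.94 FPKM in the STAT3 siRNA libraries and 5.03, 5.27 and 5.199 FPKM in the vehicle libraries. Vehicle was highest without overlap, and the log2 fold changes were -0.68 (adjusted p = 5.2e-05, SE 0.0644) after the siRNA and -0.52 (adjusted p = 0.000121, SE 0.0644) under WB436B. LGALS3BP, a secreted glycoprotein that binds galectins, averaged 56.7 ± 1.46 FPKM under WB436B, 70.8 ± 7.93 FPKM after the siRNA and 83.2 ± 3.68 FPKM under vehicle. It fell under WB436B (-0.54, adjusted p = 0.000242), and its decrease after the siRNA (-0.23, adjusted p = 0.0288) was lost without STAT3 siRNA 1 or 3 or vehicle 2 or 3 (-0.23 to -0.18, adjusted p = 0.0641 to 0.0973). EPSTI1 averaged 3.07 ± 0.187 FPKM, 3.23 ± 0.174 FPKM and 2.901 ± 0.147 FPKM in the WB436B, STAT3 siRNA and vehicle groups and passed in neither comparison with vehicle as deposited. Under WB436B its log2 fold change was 0.06, and it passed with median-of-ratios scaling (0.19, adjusted p = 0.0252) and quantile normalization (0.30, adjusted p = 0.00262). XAF1, an antagonist of the apoptosis inhibitor XIAP, had the largest standard error of the members, at 2.92, 8.102 and 8.87 FPKM in the WB436B libraries, 5.03, 10.01 and 15.4 FPKM in the STAT3 siRNA libraries and 9.35, 10.6 and 10.1 FPKM in the vehicle libraries. It passed in no comparison, and 38.3% of its exon bases overlap opposite-strand gene models, most of all PRAL.

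Interferon transcripts themselves were at or near 0. Of 17 type I interferon genes 16 were listed at 0 in every library, and IFNB1 was the exception, at 0, 0.129 and 0.145 FPKM in the WB436B libraries, 0, 0.211 and 0.0649 FPKM in the STAT3 siRNA libraries and 0, 0 and 0 FPKM in the vehicle libraries. IFNB1 did not pass the filter. IFNG was listed at 0 throughout, and IFNL1, a type III interferon, stood at 0.125, 0 and 0.0785 FPKM in the WB436B libraries, 0.135, 0 and 0.0703 FPKM in the STAT3 siRNA libraries and 0.123, 0.199 and 0.0848 FPKM in the vehicle libraries. IFNLR1, its receptor subunit, was also below the filter, between 0.272 and 0.675 FPKM.

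Of 6 interferon receptor genes 5 passed the filter, and all 5 fell under WB436B, against 41.1% of all genes, and 4 after the siRNA, against 22.3%. IFNAR1 stood at 4.92, 5.399 and 5.36 FPKM in the WB436B libraries, 4.21, 4.17 and 4.62 FPKM in the STAT3 siRNA libraries and 7.29, 7.74 and 8.26 FPKM in the vehicle libraries, with log2 fold changes of -0.49 (adjusted p = 0.000143, SE 0.0622) and -0.72 (adjusted p = 3.3e-05, SE 0.0622) and no overlap with vehicle. IFNAR2 stood at 6.65, 7.85 and 5.04 FPKM in the WB436B libraries, 5.44, 4.697 and 4.91 FPKM in the STAT3 siRNA libraries and 7.85, 12.7 and 8.55 FPKM in the vehicle libraries, and other gene models overlap 83.2% of its exon bases. It fell after the siRNA (-0.81, adjusted p = 0.00601), and its decrease under WB436B (-0.50, adjusted p = 0.0382) was lost without WB436B 1 or 3, STAT3 siRNA 1, 2 or 3 or vehicle 2 (-0.52 to -0.31, adjusted p = 0.0501 to 0.124) and in all 3 other scalings. The interferon gamma receptor genes IFNGR1 and IFNGR2 also fell, IFNGR1 more under WB436B (-1.14, against -0.74 after the siRNA) and IFNGR2 more after the siRNA (-1.38, against -0.66 under WB436B). These orders were called in the direct comparison (-0.40, adjusted p = 0.000715, for IFNGR1 and 0.71, adjusted p = 0.000249, for IFNGR2). IL10RB, shared by the type III interferon and IL-10 receptors, fell under WB436B (-1.08, adjusted p = 0.00609).

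STAT2, which binds IRF9 in ISGF3, was ordered as IRF9 was. STAT2 stood at 4.75, 5.54 and 4.57 FPKM in the WB436B libraries, 16.5, 18.7 and 18.2 FPKM in the STAT3 siRNA libraries and 15.2, 12.99 and 12.9 FPKM in the vehicle libraries. The WB436B libraries held 36.1% of the vehicle mean (log2 fold change -1.30, adjusted p = 3e-06, SE 0.0865) and the siRNA libraries 129.8% (0.36, adjusted p = 0.00842, SE 0.0865), without overlap. STAT2 and IRF9 were both higher after the siRNA and both lower under WB436B, and the treatments differed by -1.66 and -1.70 (adjusted p = 1.4e-06 and 1.6e-06). All 6 of these calls held in the 19 alternatives run.

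**Figure D4:**
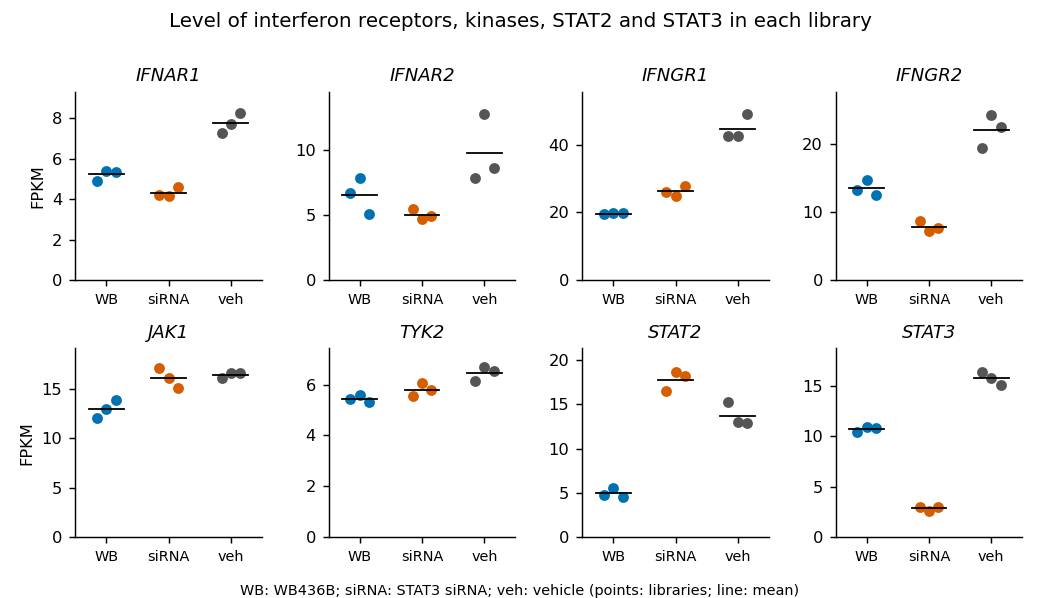
FPKM (y axis, from 0) of interferon receptor and kinase genes, STAT2 and STAT3 in each library of the WB436B, STAT3 siRNA and vehicle groups, with a line at each mean. STAT2 is highest after the siRNA and lowest under WB436B, STAT3 is lowest after the siRNA, and the 4 receptor genes are highest under vehicle, with 1 high vehicle library for IFNAR2.

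Among the kinases JAK2, which serves the interferon gamma receptor, stood at 3.02, 3.19 and 3.04 FPKM in the WB436B libraries, 4.03, 3.35 and 3.69 FPKM in the STAT3 siRNA libraries and 6.04, 6.53 and 6.403 FPKM in the vehicle libraries. It fell under WB436B (-0.84, adjusted p = 6.1e-06, SE 0.0630) and after the siRNA (-0.64, adjusted p = 6.3e-05, SE 0.0630), with no overlap with vehicle. JAK1 fell under WB436B (-0.32, adjusted p = 0.00164) and averaged 12.95 ± 0.929 FPKM there, 16.1 ± 0.986 FPKM after the siRNA and 16.4 ± 0.271 FPKM under vehicle. TYK2 averaged 5.46 ± 0.1502 FPKM, 5.801 ± 0.268 FPKM and 6.46 ± 0.2800 FPKM in the same order, a decrease under WB436B of -0.21 (adjusted p = 0.00676) that was lost with median-of-ratios scaling (-0.07, adjusted p = 0.241) and quantile normalization (-0.09, adjusted p = 0.17). Among negative regulators SOCS1, a feedback inhibitor of JAK1 and TYK2, was below the filter, at 0.273, 0.241 and 0.3701 FPKM in the WB436B libraries, 0.792, 0.719 and 0.635 FPKM in the STAT3 siRNA libraries and 0.3795, 0.425 and 0.631 FPKM in the vehicle libraries. SOCS3, the feedback inhibitor that STAT3 induces, averaged 4.104 ± 0.214 FPKM under WB436B, 0.971 ± 0.157 FPKM after the siRNA and 5.56 ± 0.599 FPKM under vehicle. It fell in both (-0.36 and -1.73), the first lost under quantile normalization (-0.19, adjusted p = 0.0907). The phosphatase gene PTPN6 fell under WB436B (-1.17, adjusted p = 6.9e-06).

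A list of nucleic acid sensors and of genes between sensing and interferon had 11 tested genes, AIM2 among them. Of these 9 fell and 1 rose under WB436B (median -0.73), with 41.1% of all genes lower and 24.9% higher. After the siRNA 7 fell with no rise (median -0.30), with 22.3% of all genes lower and 29.8% higher. TMEM173, which encodes the DNA-sensing adaptor STING, stood at 4.52, 4.67 and 5.01 FPKM in the WB436B libraries, 5.18, 5.67 and 5.52 FPKM in the STAT3 siRNA libraries and 11.2, 11.4 and 10.7 FPKM in the vehicle libraries, so every treated library lay below every vehicle library (log2 fold change -1.07 (adjusted p = 6.5e-07, SE 0.0530) under WB436B and -0.90 (adjusted p = 4e-06, SE 0.0530) after the siRNA). AIM2, a cytosolic DNA sensor of the inflammasome, fell, with log2 fold changes of -1.18 (adjusted p = 3.9e-06) under WB436B and -1.46 (adjusted p = 3.1e-06) after the siRNA.

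A list of genes taken as responsive to interferon gamma, though not to it alone, had 12 tested genes. Of these 3 rose and 8 fell under WB436B (median -0.41), against 24.9% and 41.1% of all genes. After the siRNA 2 rose and 6 fell (median -0.26), against 29.8% and 22.3%. GBP2, a guanylate-binding protein, stood at 0.624, 0.713 and 0.681 FPKM in the WB436B libraries, 1.82, 1.75 and 1.55 FPKM in the STAT3 siRNA libraries and 5.44, 6.14 and 5.95 FPKM in the vehicle libraries, a log2 fold change of -2.03 (adjusted p = 8.9e-08, SE 0.0639) under WB436B and -1.34 (adjusted p = 1.5e-06, SE 0.0639) after the siRNA. IDO1, the tryptophan-degrading enzyme, averaged 0.623 ± 0.123 FPKM under WB436B, 0.573 ± 0.101 FPKM after the siRNA and 3.897 ± 0.388 FPKM under vehicle, and fell by 1.59 and 1.64 on the log2 scale. GBP4 and APOL6 fell under WB436B (-1.40 and -1.48) and after the siRNA (-1.03 and -0.86). CXCL11, a T-cell chemokine, rose under WB436B, at 14.7, 14.8 and 12.8 FPKM in the WB436B libraries, 5.94, 6.45 and 5.86 FPKM in the STAT3 siRNA libraries and 5.58, 5.85 and 5.99 FPKM in the vehicle libraries (log2 fold change 1.15 (adjusted p = 1.3e-06, SE 0.0650) under WB436B and 0.06 (adjusted p = 0.495) after the siRNA).

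Of 24 tested interferon-stimulated genes in another list outside the 47, 5 rose and 12 fell under WB436B (median -0.36), against 24.9% and 41.1% of all genes. After the siRNA 6 rose and 8 fell (median -0.06), against 29.8% and 22.3%. This list overlaps those above, since DHX58 is also in the sensing list and GBP1 in the interferon gamma list. PNPT1, a mitochondrial RNA exonuclease, stood at 23.7, 24.2 and 24.3 FPKM in the WB436B libraries, 15.01, 13.6 and 14.97 FPKM in the STAT3 siRNA libraries and 8.27, 8.37 and 9.46 FPKM in the vehicle libraries, with log2 fold changes of 1.37 (adjusted p = 3.9e-07, SE 0.0605) under WB436B and 0.68 (adjusted p = 3.8e-05, SE 0.0605) after the siRNA. TYMP, thymidine phosphorylase, averaged 4.71 ± 0.428 FPKM under WB436B, 7.81 ± 1.55 FPKM after the siRNA and 16.1 ± 1.53 FPKM under vehicle, log2 fold changes of -1.58 (adjusted p = 8.2e-06) and -0.97 (adjusted p = 0.000285). TRIM5, a retroviral restriction factor, fell under WB436B (-1.01, adjusted p = 0.000277) and averaged 1.05 ± 0.155 FPKM there, 2.798 ± 0.615 FPKM after the siRNA and 3.15 ± 0.654 FPKM under vehicle.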

How the data were processed

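RNA-seq was done on 9 BxPC3 libraries. The authors deposited 1 table of FPKM values, with human Ensembl identifiers and symbols. Bowtie 0.12.2 and the build mm8 are named in the submitters' processing notes. Since mm8 is a mouse build and the table lists human genes, the build used cannot be settled, and coordinates are given only for RefSeq promoters. How FPKM was computed, with which annotation and whether by strand, is not given in the sources used here. This unit divides by each library's total, so a few abundant genes can shift the others.

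From these, log2(FPKM + 1) of genes reaching 1 FPKM in 3 or more libraries (12747 of 60564, 21.0%) was fitted over all 9 libraries with limma 3.58.1 in R 4.3.3 (group means, no block, variance trend, 6 residual degrees of freedom), two-sided, with Benjamini-Hochberg adjustment over all genes tested. The fit was tested on simulated data. Members were read from that fit and described by counts and medians beside all genes. Depth could not be recovered from FPKM times length in genes with 1 transcript. Exon overlap came from GENCODE 29, which held 96.5% of the identifiers, and promoters from RefSeq (GRCh38.p14). The members and lists were chosen with earlier results of these data known. Values in every library are given mainly for called, non-overlapping members among the 10 largest changes per comparison and direction. IRF7, ADAR and XAF1 are given in full outside that rule. Other pathway genes are named mainly where called with a change of at least 1 or where below the filter. JAK1, JAK2, TYK2, IFNAR1 and IFNAR2 are named whatever their change. Alternatives were other pseudocounts, filters, scalings, a fit of only the groups compared, no trend, a replicate block and leaving out each library.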

Additional observations from a re-analysis of the deposited data

How the results depend on the processing

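Of the calls against vehicle, 10 of 11 rises and 15 of 21 decreases under WB436B, and 15 of 16 rises and 5 of 10 decreases after the siRNA, held in all 19 alternatives in which the gene was tested. In the direct comparison 4 of 5 and 13 of 27 did. Of 3888 recomputed values of 69 named genes, 110 lost the call, 44 gained it and 8 changed sign with a call in the main fit or the alternative. The other 3726 kept their side of the threshold. Changes of sign in genes called in neither fit are among these 3726 and were not counted. The changes of sign with a call between WB436B and the siRNA were DDX60 (0.065), OAS2 (0.029) and TMEM173 (0.025) with median-of-ratios scaling. Under quantile normalization they were CMPK2 (0.39), EPSTI1 (0.22), JAK2 (0.064) and TMEM173 (0.018). SP110 under WB436B against vehicle was 0.18 under quantile normalization.

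In the comparison of WB436B with the siRNA, 3 of 38 members were higher and 25 lower with the filter of 5 FPKM. The shares of all genes there were 29.1% and 36.7%. Median-of-ratios scaling gave 9 higher and 16 lower of 46, against 31.5% and 30.7%. Quantile normalization gave 9 higher and 24 lower of 46, against 28.1% and 28.1%. After the siRNA 6 of 46 were lower with equal totals, against 19%. The members' median for WB436B against vehicle was -0.30 with the filter of 5 FPKM, -0.12 with equal totals and -0.040 with median-of-ratios scaling. The median of all genes moved as well, to 0.02, -0.07 and -4e-04. The members' median less that of all genes was -0.32, -0.05 and -0.04, and -0.06 in the main fit. For WB436B against the siRNA the members' median was -0.39 with that filter and -0.063 with median-of-ratios scaling. This difference from all genes was -0.34 and -0.06, and -0.11 in the main fit. For the siRNA against vehicle the members' median was -0.021 with median-of-ratios scaling (all genes 0.006). The filter leaves 38 members, and the causes of these differences were not tested. Without 1 library, the members' median was -0.35 to -0.27 for WB436B against the siRNA, -0.21 to -0.15 for WB436B against vehicle and 0.00 to 0.07 for the siRNA against vehicle. Without 1 library, 10 to 12 members were higher and 19 to 21 lower under WB436B than under vehicle. The shares of all genes were 22.4% to 25.3% and 36.8% to 41%. After the siRNA 15 to 16 were higher and 7 to 10 lower, against 25.5% to 29.7% and 18.4% to 22.1%. Between the treatments 4 to 7 were higher and 25 to 28 lower, against 18.3% to 20.9% and 40.1% to 44.7%.

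Over all genes, the filter of 5 FPKM left 7042 genes and gave 2412 lower under WB436B against vehicle (5234 at 1 FPKM), 2583 lower under WB436B against the siRNA (5621), and 2382 higher and 1756 lower after the siRNA (3800 and 2838). Between WB436B and the siRNA, median-of-ratios scaling gave 4019 higher (2554 as deposited) and quantile normalization 3585 lower (5621).

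Replicate numbers are shared between groups, and correlations of same-numbered deviations were -0.085 to 0.158. Between siRNA and vehicle each library correlated best with its own number (0.042, 0.119 and 0.158), and unlike numbers gave -0.124 to 0.014. With WB436B this held only for vehicle 1 and WB436B 1 (0.038). The labels do not say what the numbers stand for, so a pairing of siRNA and vehicle libraries is neither established nor excluded. With the replicate block 11 members were higher and 20 lower under WB436B than under vehicle, against 24% and 40% of all genes. After the siRNA 16 were higher and 10 lower, against 28.3% and 21.2%. Between the treatments 5 were higher and 27 lower, against 19.4% and 43%. The calls that changed among named genes were IFITM1 under WB436B against vehicle and JAK2 between the treatments (-0.20, adjusted p = 0.0518). Depth is unknown, so the counting error of weakly expressed members such as RSAD2, CMPK2 and ISG20 is unknown too.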
